A study of Mus musculus with 6 samples.

Results

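Lungs of mice that carry a T-bet transgene in the hemizygous state were compared with wild-type lungs. The comparison took 4 of the 6 arrays of the series: 2 labelled hCD2-T-bet tg/wt (written tg/wt below) and 2 labelled WT. Membership was read from the genotype label, and all arrays hold total RNA from lung on a C57BL/6 background, hybridised in a single colour (Cy3). The other 2 arrays, labelled hCD2-T-bet tg/tg, entered the fit so that all genotypes shared an estimate of the spread, and their levels are given beside some results. The hCD2 in the label names the human CD2 gene, whose regulatory sequence is used to direct expression to T cells, and the study concerns the alveolar proteinosis of mice that overexpress T-bet there. Age, sex, treatment, the number of founder lines and whether the arrays of a genotype come from separate animals are not given in the sources used here. The p-values thus reflect only how far these arrays differ among themselves, and that spread may be technical.

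T-bet, the product of Tbx21, is the transcription factor that commits helper T cells to the Th1 fate and drives interferon-gamma in T and NK cells. Interferon-gamma acts on surrounding cells and raises chemokines, antigen presentation and guanosine triphosphatases that act against intracellular microbes, while the Th1 programme opposes the type 2 programme of mucus, eosinophils and alternatively activated macrophages. In alveolar proteinosis, surfactant builds up in the alveoli, most often where GM-CSF signalling to alveolar macrophages fails.

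Both WT arrays, with the tg/tg arrays, lay on 1 slide and both tg/wt arrays on another, so slide and genotype cannot be told apart in any result below. A level is log2 of the processed signal minus the array's 75th percentile, so 0 is the signal at that percentile. That percentile stood at a signal of 1026 and 1037 for WT and at 1282 and 992 for tg/wt, and the share of probes well above background ran from 62.9% to 66.8%. Over the tested genes the WT arrays correlated at 0.997, the tg/wt arrays at 0.998, and arrays of different genotype at 0.991 to 0.992. Defining lung genes were high on all 4 arrays: the surfactant protein gene Sftpc was saturated at 8.96 to 9.33, the club cell gene Scgb1a1 lay at 8.45 to 8.76, and the type 1 cell gene Ager at 5.37 to 5.47. The number of arrays limits the precision of what follows.

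A gene was tested if 2 or more of the 4 arrays measured its probe well above background, which left 12745 genes. With limma and Benjamini-Hochberg adjustment at 0.05, 1966 genes (15.4%) were higher in tg/wt and 1700 (13.3%) were lower, or 28.8% in all. Most differences were small: the median log2 difference of all tested genes was 0.01, with quartiles of -0.11 and 0.14. Among the called genes, 138 were over 2-fold higher and 110 over 2-fold lower. A test against a minimum change of 1.5-fold called 97 genes higher (0.761%) and 89 lower (0.698%). Leaving out 1 array moved the counts: 902 and 613 without WT 1, 915 and 703 without WT 2, 1045 and 852 without tg/wt 1, and 829 and 670 without tg/wt 2. The levels of WT and tg/wt did not overlap for 9283 genes (72.8%), so a lack of overlap alone says little about a gene here.

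**Figure D1:**
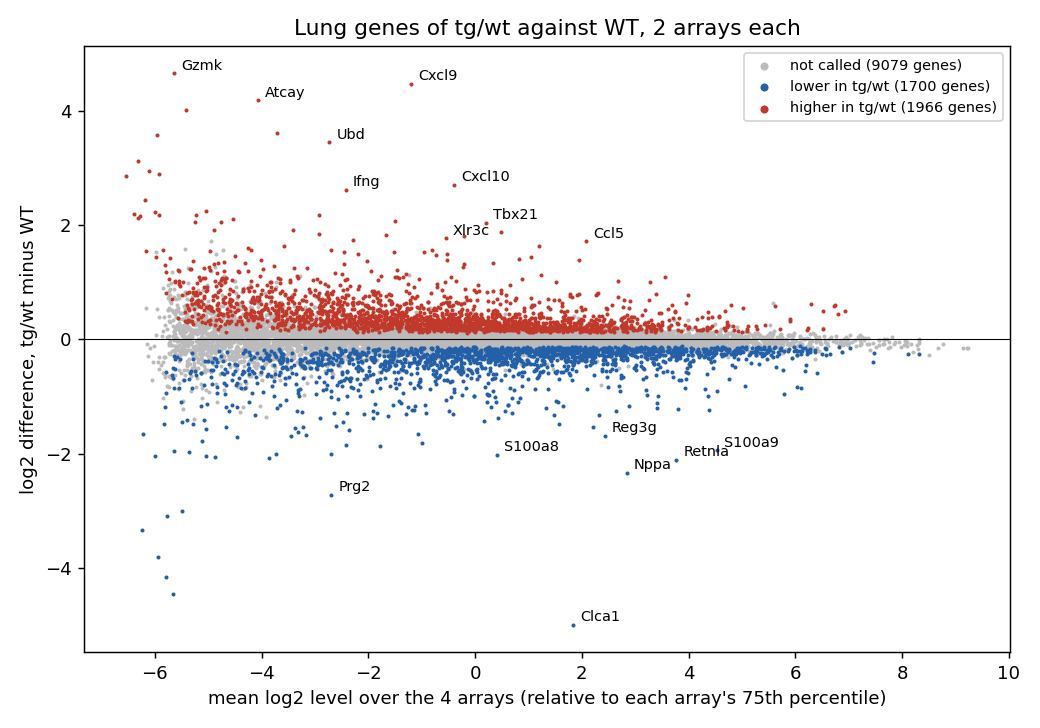
Each point is 1 of 12745 tested genes, plotted by its mean log2 level over the 4 arrays against its log2 difference, tg/wt minus WT. The 1966 genes called higher are red, the 1700 called lower blue and the others grey, and the points farthest from 0 include Cxcl9 above and Clca1 below.

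The split between higher and lower depends on the scale. Of the called genes, 53.6% were higher in tg/wt on the 75th percentile scale, 43.5% when arrays were centred on the median of their detected probes, and 25.4% when they were scaled to the spiked E1A control RNAs. Of the 10 E1A controls, 8 were well above background on all 4 arrays. On the 75th percentile scale the differences of these 8, tg/wt minus WT, ran from -0.03 to 0.28. Scaling to them moved every gene by -0.20 (log2) and left 322 higher and 948 lower. That shift makes falls larger, yet lower calls dropped from 1700 to 948. The 2 tg/tg arrays, which share in the estimate of spread, differed in these controls, with E1A_r60_n11 at 4.63 and 4.31. This scaling carries such differences between arrays into every gene, and it makes every rise smaller by 0.20. The part of these array differences in the lost calls was not tested. No gene called in 1 direction was called in the other under either scale. Small rises are therefore relative to the bulk of genes, and the counts of most lists on the spike-in scale are given beside them.

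**Figure D2:**
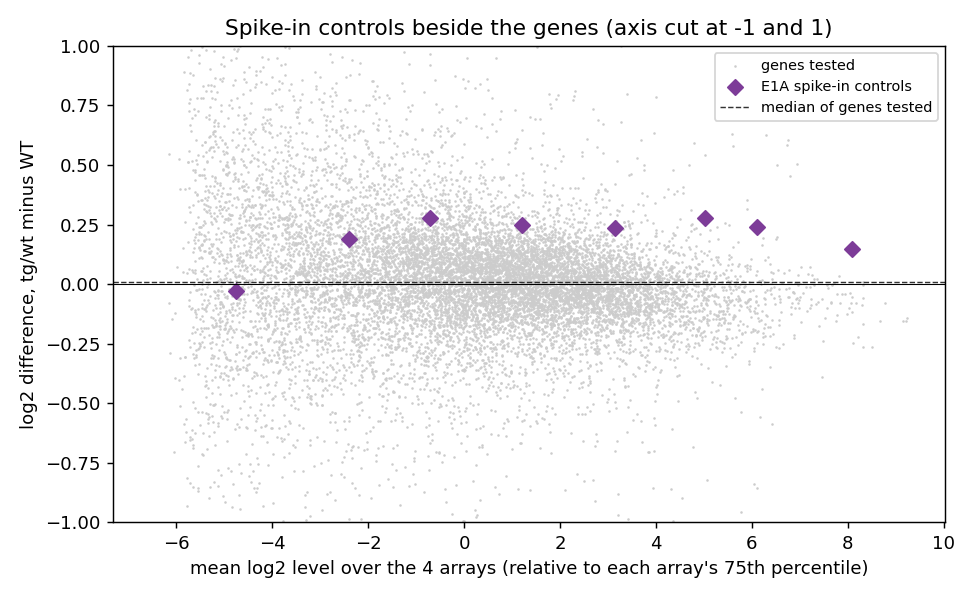
Log2 difference, tg/wt minus WT, against mean log2 level over the 4 arrays, for the tested genes (grey) and the 8 E1A controls that were well above background (purple). The vertical axis is cut at -1 and 1, the dashed line is the median of the genes (0.01), and the controls lie between -0.03 and 0.28.

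The transgene's own transcript was measured first. Tbx21 read -0.81 and -0.81 on the WT arrays, 1.21 and 1.25 on the tg/wt arrays and 3.13 and 3.15 on the tg/tg arrays, as log2 levels. The genotypes did not overlap, and both tg/wt arrays lay between the other two genotypes. Hemizygous lungs held 4.11-fold more of it than WT (a log2 change of 2.04 with SE 0.0344, adjusted p = 6.94e-05). The probe does not separate transgene from endogenous transcript.

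Genes of the Th1 programme rose with Tbx21. Among 22 tested genes tied to the Th1 state or to T-bet, 17 rose and 1 fell, Tbx21 itself being among those that rose, with a median log2 difference of 1.04 against 0.01 over all genes, and 14 rose and 1 fell on the spike-in scale. Ifng, the interferon-gamma gene, measured -3.66 and -3.80 in WT against -1.14 and -1.10 in tg/wt, a 6.12-fold rise (SE 0.0624 in log2, adjusted p = 0.000142). Both of its probes gave that size, at 2.61 and 2.66. Ccl3, Ccl4 and Ccl5, chemokines made by activated T and NK cells, rose 3.59-fold, 4.20-fold and 3.28-fold. Ccl4, for example, measured -2.51 and -2.55 in WT against -0.34 and -0.58 in tg/wt. Cxcr3, the Th1 chemokine receptor, measured -1.10 and -1.12 in WT against 0.68 and 0.70 in tg/wt, a 3.48-fold rise, and Fasl, the death ligand of cytotoxic cells, rose 3.12-fold. None of these genes overlapped between genotypes, which the rule for the largest rises required. Il18r1, a chain of the interleukin-18 receptor, went the other way and fell from 1.98 and 1.97 to 1.42 and 1.48 (log2 difference -0.53). Il12rb2 was not well above background on enough arrays to be tested.

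The interferon-gamma response held the 3 largest rises among genes measured on all 4 arrays. Of 21 tested genes, 20 rose and none fell, with a median log2 difference of 0.76, and 11 still rose on the spike-in scale. Cxcl9, an interferon-gamma-induced ligand of CXCR3, measured -3.50 and -3.37 in WT against 1.04 and 1.02 in tg/wt, a 22.1-fold rise (log2 difference 4.47, SE 0.0526, adjusted p = 2.27e-05). Cxcl10, a second CXCR3 ligand, measured -1.78 and -1.71 in WT against 1.01 and 0.90 in tg/wt, which was 6.50-fold higher. Ubd, the ubiquitin-like modifier FAT10, measured -4.47 and -4.44 in WT against -0.99 and -1.03 in tg/wt, which was 10.9-fold higher. In all 3 the tg/wt arrays lay far above the WT arrays. The cell-autonomous defence GTPases moved less: Gbp6 rose 2.31-fold, Igtp 2.14-fold and Tgtp1 2.03-fold. Igtp measured 2.98 and 3.02 in WT against 4.09 and 4.10 in tg/wt, and Tgtp1 2.18 and 2.17 against 3.18 and 3.21. Of the list, only Wars was tested and not called, and Nos2 was too dim to test.

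The promoters of these genes are shown because the response is read through short interferon-responsive elements. The sequences are the 250 bases before the transcription start from RefSeq (GRCm38.p6), 5′ to 3′ on the gene's strand, with matches to a GAS core (TTCNNNGAA) and an ISRE core (GAAA, any 2 bases, GAAA, added after the data were seen) in capitals, both searched on both strands. They cover chr11:58199306-58199555 on the + strand for Igtp, chr11:48992247-48992496 on the - strand for Tgtp1, chr5:92348890-92349139 on the - strand for Cxcl10 and chr5:92328080-92328329 on the - strand for Cxcl9.
Igtp: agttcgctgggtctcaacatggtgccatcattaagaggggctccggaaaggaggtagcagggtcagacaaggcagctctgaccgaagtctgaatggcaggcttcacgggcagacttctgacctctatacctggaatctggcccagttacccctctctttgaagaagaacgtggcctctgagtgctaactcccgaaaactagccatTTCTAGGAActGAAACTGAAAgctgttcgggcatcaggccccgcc
Tgtp1: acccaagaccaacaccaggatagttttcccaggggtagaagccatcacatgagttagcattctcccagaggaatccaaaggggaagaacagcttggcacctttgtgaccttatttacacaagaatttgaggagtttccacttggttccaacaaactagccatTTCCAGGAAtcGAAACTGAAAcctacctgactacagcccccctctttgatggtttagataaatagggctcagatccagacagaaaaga
Cxcl10: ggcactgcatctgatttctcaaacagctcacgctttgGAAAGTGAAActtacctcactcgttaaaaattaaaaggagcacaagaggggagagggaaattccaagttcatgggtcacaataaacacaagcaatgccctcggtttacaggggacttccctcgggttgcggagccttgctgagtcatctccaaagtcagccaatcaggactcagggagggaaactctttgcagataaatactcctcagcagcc
Cxcl9: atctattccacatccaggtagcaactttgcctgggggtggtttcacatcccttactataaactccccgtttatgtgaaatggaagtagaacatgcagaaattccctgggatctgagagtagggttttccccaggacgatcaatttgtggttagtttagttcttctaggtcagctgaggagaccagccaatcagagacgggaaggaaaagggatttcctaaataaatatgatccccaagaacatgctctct
In Igtp the GAS match begins at position -45 from the start site and the ISRE match at -34, and in Tgtp1 they begin at -88 and -77, in the same order and spacing. Cxcl10 held an ISRE match alone, at -213, and the printed Cxcl9 stretch held neither, nor did the window of Ubd. Within windows of 300 bases, reaching 50 bases past the start, the GAS core was found in 7 of 16 tested response genes with a window (43.8%), against 8.48% of all tested genes and 8.30% of all windows. The ISRE core was found in 10 of 16 (62.5%), against 3.89% and 3.44%. The genes with the largest rises, Cxcl9 and Ubd, were among those with no match to these 2 patterns in this window, and other elements were not searched for.

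**Figure D3:**
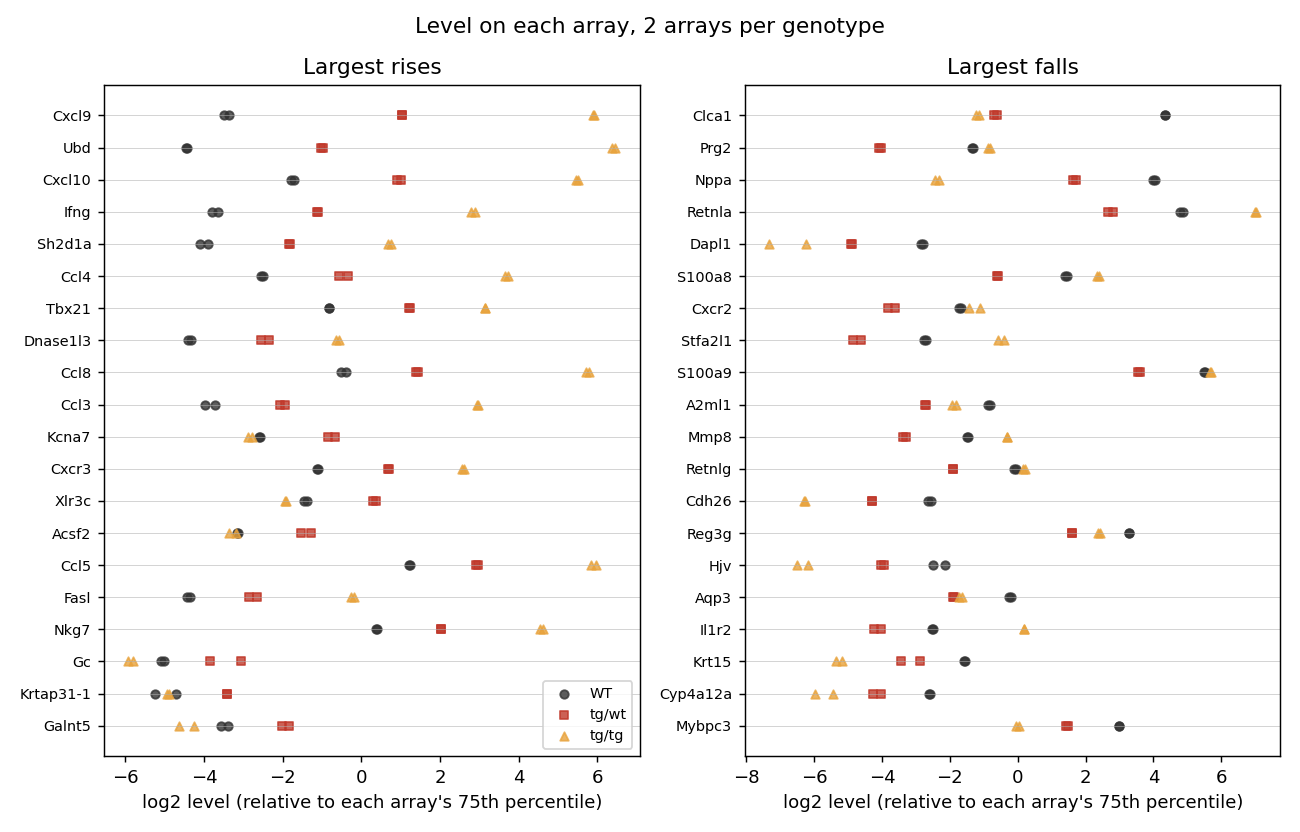
Log2 level on each array, relative to the array's 75th percentile, for the 20 largest rises and 20 largest falls among genes measured on all 4 arrays, with 2 points per genotype. WT (black) and tg/wt (red) are apart in each row, as the rule for choosing these genes required. The tg/tg points (orange) lie beyond tg/wt for Cxcl9 and Tbx21 but on the far side of WT for S100a8 and Retnla.

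Genes of the type I interferon response rose in smaller number. Of 23 tested, 12 rose and 1 fell, with a median of 0.18. This count was not stable: without WT 1, WT 2, tg/wt 1 and tg/wt 2 it was 5, 7, 7 and 6 higher, and on the spike-in scale only 1 gene stayed higher and the median was -0.02. The gene with the largest change was Zbp1, a nucleic acid sensor, which measured 0.67 and 0.65 in WT against 1.74 and 1.84 in tg/wt and rose 2.18-fold. Irf7 and Stat2, factors of the type I pathway, rose 1.33-fold and 1.30-fold. Ifit2, an antiviral RNA-binding protein gene, rose 1.46-fold, with a second probe at 0.05 and the call lost without tg/wt 2 (log2 difference 0.54). Rsad2, the antiviral enzyme viperin, fell by 0.31, and that call was lost without WT 2, tg/wt 1 or tg/wt 2 (-0.36 to -0.22).

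Antigen presentation genes rose as a group and by modest amounts. All 14 tested class II genes rose, with a median of 0.62, and 7 of 12 class I and immunoproteasome genes rose, with a median of 0.47. On the spike-in scale the counts fell to 2 of 14 and 1 of 12, although the medians stayed above 0, at 0.43 and 0.27. Tap1, the peptide transporter, measured -0.40 and -0.43 in WT against 0.52 and 0.55 in tg/wt, a 1.93-fold rise. The immunoproteasome subunit Psmb9 rose 1.55-fold and the nonclassical class I gene H2-T23 rose by 0.58 (log2). Among class II genes, H2-Oa, which tunes peptide exchange in B cells, measured -0.63 and -0.63 in WT against 0.25 and 0.25 in tg/wt and rose 1.83-fold. The classical chains H2-Eb1 and H2-Aa rose by 0.78 and 0.68 (log2).

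T cell genes were higher on both tg/wt arrays. Of 21 tested, 19 rose and none fell, with a median of 0.67, and 9 still rose on the spike-in scale. In whole lung, more cells of a type and more RNA per cell cannot be told apart, and the same holds for fewer cells and less RNA. The summed level of the tested T cell genes, on a linear scale in units of the 75th percentile, was 10.4 and 10.1 in WT against 17.6 and 17.7 in tg/wt. Sh2d1a, the signalling adaptor SAP, measured -4.11 and -3.90 in WT against -1.82 and -1.84 in tg/wt and rose 4.52-fold. Cd6 and Cd5, paired scavenger receptor family proteins of T cells, rose 2.64-fold and 2.41-fold, and the kinase Lck rose 2.62-fold. Cd6, for example, went from 0.17 and 0.07 to 1.52 and 1.52. Receptors that mark activation or restraint rose too, 8 of 9 tested with none lower, and 4 rose on the spike-in scale. Pdcd1, the PD-1 gene, measured -3.15 and -3.27 in WT against -1.70 and -1.68 in tg/wt, which was 2.87-fold higher, while Icos was 2.53-fold and Lag3 1.99-fold higher. Ctla4, Foxp3, Il2ra and Il10 were too dim to test.

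Genes of naive and resting T cells moved less, with 8 of 13 higher, 1 lower and a median of 0.27. Without WT 1, WT 2, tg/wt 1 and tg/wt 2 the count of higher genes was 4, 4, 5 and 4, and it was 2 on the spike-in scale. Gimap7, a lymphocyte GTPase, was not well above background in WT and was at least 2.70-fold higher in tg/wt. A fold written this way is a bound for dim readings. A dim reading below the lowest signal that counts as well above background on its array was raised to that signal. A dim reading above it was kept, and the spread between arrays does not enter the bound. Ccr7, the lymph node homing receptor, measured -0.78 and -0.77 in WT against -0.26 and -0.29 in tg/wt and rose 1.41-fold. S1pr1, the receptor for egress from lymph nodes, fell by 0.25, and the call was lost without WT 1 or WT 2 (-0.26 to -0.25).

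NK and cytotoxic genes rose with a median of 1.05, 14 of 15 tested higher and none lower, and 10 rose on the spike-in scale. Their summed level was 5.01 and 5.05 in WT against 11.0 and 11.0 in tg/wt. Gzmk, a granzyme of T cells, was at -8.03 and -7.89 in WT, not well above background there, and at -3.30 and -3.32 in tg/wt, at least 5.05-fold higher. It passed the filter through its tg/wt arrays alone. Its adjusted p of 2.27e-05 (limma) belongs to the log2 difference of the readings, 4.65, and not to that bound. Nkg7, a granule membrane protein, measured 0.38 and 0.38 in WT against 2.02 and 2.02 in tg/wt, a 3.11-fold rise. Ctsw, a cathepsin of cytotoxic cells, rose 2.95-fold. Prf1, perforin, and Gzma, granzyme A, each rose 2.14-fold. The tg/wt arrays lay above the WT arrays for each of these genes, though 72.8% of all tested genes had no overlap in 1 direction or the other.

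B cell genes were also higher. Of 21 tested B and plasma cell genes 17 rose and 2 fell, with a median of 0.78, and 13 rose on the spike-in scale. Cd72, a B cell inhibitory receptor, measured -1.47 and -1.45 in WT against 0.03 and 0.00 in tg/wt, a 2.78-fold rise. Spib, a factor of the B lineage, rose 2.20-fold and the inhibitory lectin Cd22 2.17-fold. The 2 that fell belong to antibody secretion. Jchain, the joining chain of secreted IgM and IgA, measured 3.15 and 3.19 in WT against 2.20 and 2.33 in tg/wt and fell by 0.91. Xbp1, the secretory stress factor, fell by 0.17, a call that did not survive the loss of any 1 of the 4 arrays (-0.19 to -0.14).

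Monocyte and interstitial macrophage genes, inflammatory mediators and cell cycle genes rose in turn. Of 16 tested monocyte and macrophage genes 13 rose and none fell, with a median of 0.61, and 6 rose on the spike-in scale. Ms4a7, a marker of tissue macrophages, measured -0.90 and -0.86 in WT against 0.41 and 0.48 in tg/wt and rose 2.50-fold, and the complement genes C1qa, C1qb and C1qc rose 1.74-fold, 1.76-fold and 1.67-fold. Of 19 tested cytokine and chemokine genes 14 rose and 1 fell, with 9 higher without tg/wt 2 and 4 higher on the spike-in scale. Ccl8, a monocyte chemokine, measured -0.51 and -0.40 in WT against 1.39 and 1.44 in tg/wt, a 3.66-fold rise. Tnf rose 2.61-fold and the follicular chemokine Cxcl13 rose 2.11-fold. Il1b, the interleukin-1 beta gene, was the exception and fell from 0.70 and 0.69 to -0.21 and -0.30 (log2 difference -0.95). Of 22 tested proliferation genes 21 rose and none fell, with a median of 0.61, and 7 rose on the spike-in scale. The mitotic genes Ccnb1 and Aurkb rose 2.02-fold and 1.93-fold, and Tk1, thymidine kinase, rose 1.80-fold, from -1.73 and -1.71 to -0.87 and -0.87.

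**Figure D4:**
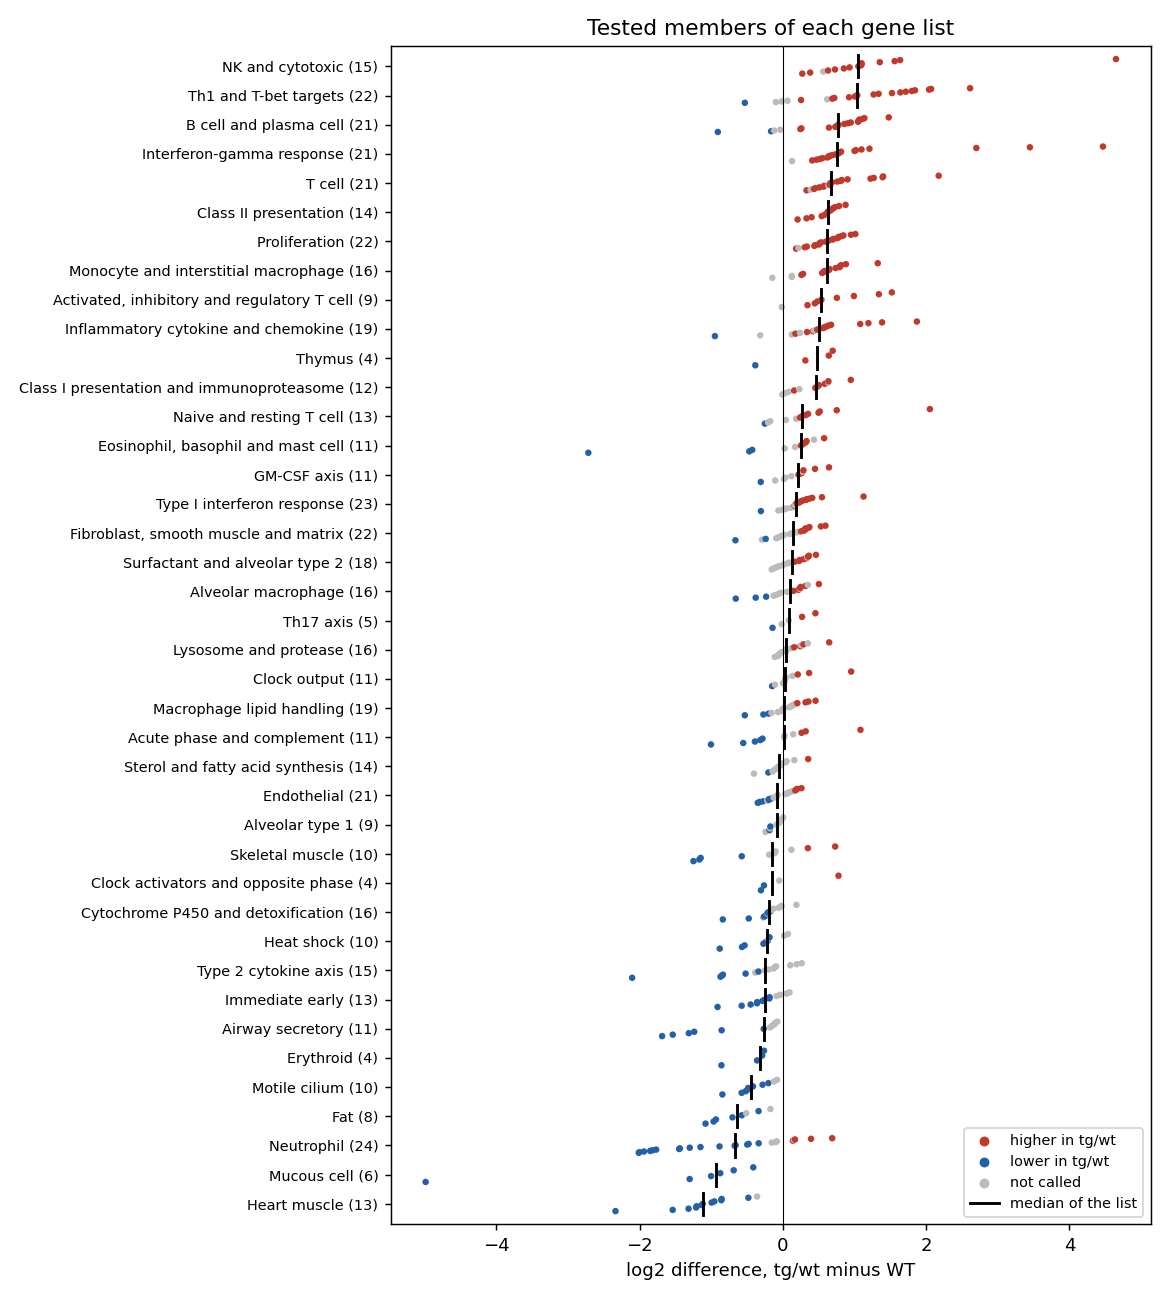
Each point is a tested member of the list named at left (number tested in brackets), placed by its log2 difference, tg/wt minus WT, with called members in red or blue, others in grey and the list median as a black bar. Lymphocyte, interferon and proliferation lists sit to the right of 0, and the heart muscle, mucous cell and neutrophil lists have the lowest medians.

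The largest fall among the tested genes was that of a mucous cell gene. Clca1, a secreted goblet cell protein that modifies mucus, measured 4.34 and 4.34 in WT against -0.61 and -0.70 in tg/wt, a 31.8-fold fall (log2 difference -4.99, SE 0.0537, adjusted p = 2.27e-05). All 6 tested mucous cell genes fell, with a median of -0.94, and all 6 fell on the spike-in scale. Agr2, which folds mucins, measured 0.21 and 0.28 in WT against -1.08 and -1.03 in tg/wt and fell 2.47-fold. The trefoil peptide Tff2 measured 0.85 and 0.90 against -0.15 and -0.10, the anion exchanger Slc26a4 fell 1.83-fold and the mucin Muc5b 1.61-fold. Spdef, the goblet cell transcription factor, fell by 0.41, a call lost without WT 1, WT 2 or tg/wt 2 (-0.45 to -0.36). Foxa3, Gcnt3 and Itln1 were too dim to test. The genotypes were apart for each of the genes given here, with WT the higher, but they were apart in 1 direction or the other for 72.8% of all tested genes.

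Genes of the type 2 axis fell in part, and a mixed list of eosinophil, basophil and mast cell genes went in both directions. Of 15 tested genes of the type 2 axis 6 fell and none rose (40% called, against 28.8% of all tested genes), with a median of -0.25. On the spike-in scale 7 fell. The count includes dim members: of the 12 well above background on all 4 arrays 4 fell. With low values held at a floor 5 of 15 fell, with a median of -0.13. Retnla, a secreted product of alternatively activated macrophages and airway epithelium, measured 4.79 and 4.86 in WT against 2.65 and 2.79 in tg/wt, a 4.30-fold fall (SE 0.063 in log2, adjusted p = 0.000207). The chemokine Ccl24, which draws eosinophils, and Ccl17, which draws type 2 T cells, each fell by 0.87 and 0.85, and Areg, amphiregulin, fell by 0.84. Il4 was just above background in WT, at -5.27 and -5.43, and not in tg/wt, so it was at least 1.19-fold lower. Its call was lost when dim values were held at a floor (-0.057) or with a variance trend (-0.52). It was also lost under normexp with capped local backgrounds (-0.18). Il5 was too dim to test, and Il13 and Il33 were not called. Prg2, the major basic protein of eosinophil granules, measured -1.34 and -1.33 in WT against -4.02 and -4.09 in tg/wt, a 6.58-fold fall. The mixed list that holds it did not fall as a whole: of 11 tested eosinophil, basophil and mast cell genes 5 rose and 3 fell. That was 72.7% called, against 28.8% of all tested genes. The eosinophil genes Epx, Prg3 and Il5ra were too dim to test, so the count does not speak for eosinophil genes alone. Hdc, the histamine-forming enzyme, fell by 0.43 and Mcpt4, a mast cell protease, by 0.47, the second call being lost without WT 1, WT 2 or tg/wt 2 (-0.48 to -0.40). On the spike-in scale 3 of the 11 fell and none rose, and without WT 1, WT 2, tg/wt 1 and tg/wt 2 the number higher was 2, 1, 4 and 3.

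Airway epithelial genes fell in several classes. Of 11 tested airway secretory genes 6 fell and none rose, with a median of -0.27, and 5 fell on the spike-in scale. Reg3g, an antibacterial lectin, measured 3.28 and 3.27 in WT against 1.59 and 1.59 in tg/wt, a 3.22-fold fall. Bpifb1 and Bpifa1, lipid-binding host defence proteins of the upper airway, fell 2.49-fold and 2.36-fold, and the secretoglobin Scgb3a1 fell 1.81-fold. Scgb1a1, which marks club cells, was not called (8.76 and 8.75 in WT, 8.45 and 8.75 in tg/wt, with overlap). The basal cell keratins Krt5 and Krt15 were 2.90-fold and 3.01-fold lower, the first losing its call without any 1 of the 4 arrays (-1.60 to -1.48). Among further large falls, the water channel Aqp3 was 3.16-fold lower, the protease inhibitor A2ml1 3.63-fold, the cadherin Cdh26 3.23-fold and Dapl1, an epithelial differentiation gene, 4.22-fold. The Dapl1 call was lost without any 1 array (-2.10 to -2.05). Of 10 tested motile cilium genes 8 fell and none rose, with a median of -0.45, and 6 fell on the spike-in scale. Rsph1, of the radial spoke, fell by 0.85, Dnali1, of the dynein arm, by 0.58 and Dynlrb2, a dynein light chain, by 0.49.

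Neutrophil genes were lower in tg/wt than in WT. Of 24 tested, 16 fell and 4 rose, with a median of -0.67, and on the spike-in scale 16 fell and none rose. S100a8, a calprotectin subunit, measured 1.40 and 1.45 in WT against -0.57 and -0.61 in tg/wt, a 4.04-fold fall (SE 0.0415 in log2, adjusted p = 0.000118). Its partner S100a9 measured 5.52 and 5.49 in WT against 3.59 and 3.54 in tg/wt and fell 3.84-fold. Cxcr2, the receptor that draws neutrophils to chemokines, measured -1.73 and -1.67 in WT against -3.60 and -3.81 in tg/wt and fell 4.01-fold. In all 3 WT was the higher, and the rule for the largest falls required that the genotypes not overlap. Mmp8, the neutrophil collagenase, fell 3.61-fold, Retnlg 3.53-fold, the cystatin-like Stfa2l1 4.01-fold and the decoy receptor Il1r2 3.08-fold. Camp, the cathelicidin gene, was not well above background in tg/wt and was at least 2.61-fold lower. Elane was too dim to test. The 4 that rose were Fpr1 and Fpr2, formyl peptide receptors shared with macrophages, at 1.31-fold and 1.61-fold, and Lcn2 and Chil1, which epithelium also makes, at 0.17 and 0.14 in log2. The last 2 calls were lost without any 1 of the 4 arrays (0.13 to 0.20 and 0.12 to 0.16), and the number of rising members was 2, 2, 3 and 2 without WT 1, WT 2, tg/wt 1 and tg/wt 2. The level of S100a8 in tg/tg was 2.40 and 2.35, above both WT arrays, and that of Retnla was 7.02 and 6.98, so for both genes tg/wt was the lowest genotype.

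**Figure D5:**
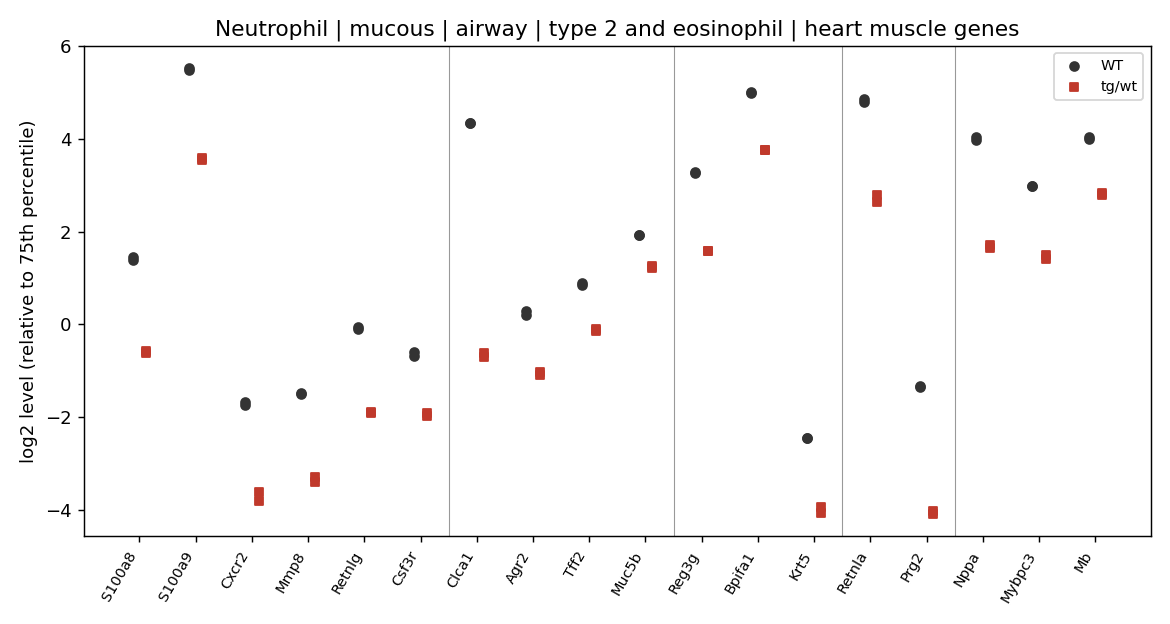
Log2 level on each array, relative to its 75th percentile, for 18 genes that fell, grouped by vertical lines as neutrophil, mucous cell, airway, type 2 and eosinophil, and heart muscle genes. Black points are the 2 WT arrays and red squares the 2 tg/wt arrays; the arrays of a genotype lie close together and WT lies above tg/wt in each gene, by 4.99 for Clca1.

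Genes of tissues that lie beside or run into the lung differed between the groups as well. Of 13 tested heart muscle genes 12 fell and none rose, with a median of -1.12, and 13 fell on the spike-in scale. Their summed linear level was 245 and 244 in WT and 117 and 119 in tg/wt. Nppa, the atrial natriuretic peptide, measured 4.05 and 3.98 in WT against 1.71 and 1.64 in tg/wt, a 5.06-fold fall, and Mybpc3, a cardiac myosin-binding protein, measured 2.98 and 2.99 against 1.41 and 1.49, a 2.91-fold fall. Csrp3, Myl4 and Mb, a muscle LIM protein, an atrial myosin light chain and myoglobin, fell 2.49-fold, 2.32-fold and 2.31-fold. As background, the pulmonary veins of mice carry heart muscle. Of 10 tested skeletal muscle genes 4 fell and 2 rose, and on the spike-in scale 4 fell and none rose. The myosin genes Myh4 and Myl1 fell 2.38-fold and 2.22-fold, and Ckm, muscle creatine kinase, fell by 1.17 with its call lost without any 1 of the 4 arrays (-1.19 to -1.15). The fast troponins went the other way: Tnnt3 rose 1.66-fold and Tnni2 1.27-fold, neither call holding on the spike-in scale and the second lost also without WT 2 (0.32). Of 8 tested fat genes 6 fell and none rose, or 3 without any 1 array and 7 on the spike-in scale. Pck1, an enzyme of gluconeogenesis, fell 2.12-fold, Cidea, a lipid droplet protein, 1.96-fold and Cfd, adipsin, 1.63-fold. All 4 tested erythroid genes fell, led by the red cell anion exchanger Slc4a1 at 1.81-fold, and 2 of 4 fell without WT 1 or on the spike-in scale. The part of differing tissue content in the other results was not tested.

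Of 5 tested genes on the Y chromosome, 3 were well above background on all 4 arrays and fell, and 2 were not so in WT and rose. Eif2s3y measured 1.54 and 1.45 in WT against 0.87 and 0.78 in tg/wt and fell by 0.67, and Ddx3y measured 0.41 and 0.47 against 0.02 and 0.06 and fell by 0.40. Kdm5d fell by 0.14, a call lost without any 1 of the 4 arrays (-0.17 to -0.12). Gm20738 and Ssty2 were the 2 that rose, and Ssty2 was singled out after its values were seen. Ssty2, a member of a multicopy family of male germ cells whose copies a probe may not separate, measured -8.03 and -7.74 in WT against -4.62 and -4.89 in tg/wt and was at least 1.86-fold higher. Gm20738 measured -5.97 and -6.34 against -3.80 and -4.03, at least 3.32-fold higher. In tg/tg neither was well above background, at -7.06 and -7.12 for Ssty2 and -6.49 and -6.71 for Gm20738, so both tg/wt arrays stood above the other genotypes. The brightest probes of Xist and Uty were well above background on none of the 4 arrays, and neither gene was tested.

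Surfactant genes, the products that build up in proteinosis, were close between genotypes. Of 18 tested alveolar type 2 genes 8 rose (44.4%, against 15.4% of all tested genes) and none fell, with a median of 0.13. None was called on the spike-in scale, where the median was -0.07, and 4, 4, 6 and 3 rose without WT 1, WT 2, tg/wt 1 and tg/wt 2. Sftpa1 measured 7.62 and 7.51 in WT against 7.49 and 7.63 in tg/wt, with overlap and a 95% confidence interval of -0.18 to 0.17 for the log2 difference. Sftpb, the hydrophobic protein needed to spread surfactant, measured 2.85 and 2.89 against 2.95 and 2.92 (interval -0.06 to 0.18), and Sftpd, a collectin, 6.86 and 6.88 against 6.78 and 6.81 (interval -0.20 to 0.04). No fold is given for Sftpc, whose spots were saturated throughout. The lamellar body lipid transporter Abca3 was 0.11 lower (interval -0.24 to 0.02), and the phosphate transporter Slc34a2 rose 1.28-fold. Of 9 tested alveolar type 1 genes 2 fell and none rose (22.2% called, against 28.8% of all tested genes). Neither was called without any 1 array or on the spike-in scale.

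Genes of the GM-CSF axis and of alveolar macrophages all changed less than 2-fold, but 54.5% and 56.25% of them were called, against 28.8% of all tested genes. Of 11 tested GM-CSF axis genes 5 rose and 1 fell, with a median of 0.22. None was called on the spike-in scale, and 2, 3, 3 and 3 rose without WT 1, WT 2, tg/wt 1 and tg/wt 2. Csf2, the GM-CSF gene, measured -2.44 and -2.44 in WT against -1.73 and -1.85 in tg/wt and rose 1.56-fold, and Csf2rb2, a receptor chain, rose 1.36-fold. Cish, a target of STAT5 downstream of the receptor, fell by 0.31, a call lost without any 1 array (-0.37 to -0.25). Of 16 tested alveolar macrophage genes 6 rose and 3 fell, with 3 and 1 without WT 1, 1 and 2 without WT 2, 1 and 2 without tg/wt 1, and 3 and 1 without tg/wt 2. On the spike-in scale none rose and 2 fell. Fabp4, a fatty acid carrier, fell by 0.66, and Ear1, a ribonuclease of these cells, rose 1.42-fold. Macrophage lipid handling genes rose in 4 and fell in 3 of 19, and lysosomal genes rose in 4 of 16, with a median of 0.02 and 0.05. The shares called, 36.8% and 25%, were near the 28.8% of all tested genes. Leaving out WT 1, WT 2, tg/wt 1 and tg/wt 2 left 2, 3, 2 and 2 lipid genes higher, 1 lower without tg/wt 1 and none otherwise, and 1, 2, 3 and 1 lysosomal genes higher. On the spike-in scale no member of these 2 lists rose and 1 lipid gene fell.

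Stress-response and detoxification genes were lower in part. Of 13 tested immediate early genes 9 fell and none rose, and of 10 heat shock genes 7 fell and none rose. The shares lower were 69.2% and 70%, against 13.3% of all tested genes. Without WT 1, WT 2, tg/wt 1 and tg/wt 2 the counts were 3, 3, 4 and 3 for the first list and 3 lower throughout for the second, with 1 heat shock gene higher without WT 2, while on the spike-in scale they were 5 and 3. Fos measured 0.05 and 0.09 in WT against -0.84 and -0.85 in tg/wt and fell by 0.91, the phosphatase Dusp1 fell by 0.58 and Junb by 0.45. The chaperones Hsph1, Hspb1 and Hsp90aa1 fell by 0.88, 0.57 and 0.54. Of 16 tested cytochrome P450 and detoxification genes 8 fell (50%, against 13.3% of all tested genes) and none rose. Without WT 1, WT 2, tg/wt 1 and tg/wt 2 the number lower was 2, 2, 3 and 4, with 1 higher without tg/wt 1. On the spike-in scale 2 fell. Cyp2a5 and Cyp2s1, airway cytochromes, fell by 0.84 and 0.48. Clock output genes rose in 3 and fell in 1 of 11 (36.4% called, against 28.8% of all tested genes), with Per3 1.94-fold higher. On the spike-in scale 1 rose and none fell. Of 4 tested clock activators and opposite-phase genes 1 rose and 2 fell, with a median of -0.16: Cry1 was 1.71-fold higher, and Clock and Nfil3 fell by 0.26 and 0.31. The Clock call was lost without WT 2, tg/wt 1 or tg/wt 2 (-0.27 to -0.22) and that of Nfil3 without WT 2 or tg/wt 2 (-0.27 to -0.26). The rise alone was called on the spike-in scale, and without WT 1, WT 2, tg/wt 1 and tg/wt 2 the number lower was 2, 0, 1 and 0. Without WT 1, WT 2, tg/wt 1 and tg/wt 2 the clock output list had 1, 2, 2 and 2 genes higher and none lower.

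The remaining lists had members in both directions or few calls. Of 21 tested endothelial genes 4 rose and 6 fell (47.6% called, against 28.8% of all tested genes). The tight junction gene Cldn5 fell by 0.20, a call lost without any 1 array (-0.23 to -0.17), and the lymphatic receptor Lyve1 by 0.35. Under quantile normalisation 5 endothelial genes rose and 4 fell, and 2 fell without any 1 of the 4 arrays, with 1 higher without WT 2 and none otherwise. On the spike-in scale none rose and 1 fell. Of 22 fibroblast and matrix genes 9 rose and 2 fell (50% called, against 28.8% of all tested genes). Without WT 1, WT 2, tg/wt 1 and tg/wt 2 the number higher was 5, 6, 9 and 4, and none was higher on the spike-in scale. Col3a1, a fibrillar collagen, rose 1.51-fold, and Spp1, osteopontin, fell by 0.66. Acute phase genes rose in 3 and fell in 5 of 11 (72.7% called, against 28.8% of all tested genes). Saa3, an inducible serum amyloid, measured -1.85 and -1.92 in WT against -0.76 and -0.85 in tg/wt and rose 2.12-fold. Pigr, which carries IgA across epithelium, fell 2.01-fold. Without WT 1, WT 2, tg/wt 1 and tg/wt 2 the acute phase counts were 3, 1, 2 and 2 higher and 3, 3, 3 and 4 lower, and on the spike-in scale 1 rose and 3 fell. Of the Th17 axis Il17a, Il17f, Il22 and Il23r were too dim to test. Ccr6, a chemokine receptor, rose 1.37-fold, a call that did not hold on the spike-in scale. Il17re fell by 0.15 with its call lost without any 1 array (-0.18 to -0.11), and Ccl20 and Il1r1 were not called. Sterol and fatty acid synthesis genes rose in 1 and fell in 1 of 14 (14.3% called, against 28.8% of all tested genes). Neither was called without tg/wt 2, and the fall was not called without WT 2 or tg/wt 1. On the spike-in scale none rose and 1 fell. Of the thymus list 4 of 11 members were tested, of which 3 rose and 1 fell, with 2 higher without tg/wt 1 or tg/wt 2 and the fall called only without tg/wt 1. On the spike-in scale none of the 4 rose and 1 fell. Rag1, Rag2 and Ptcra, which define thymocytes, were too dim to test.

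Some of the largest differences belonged to genes outside these programmes. Dnase1l3, a secreted nuclease of myeloid cells, measured -4.41 and -4.32 in WT against -2.55 and -2.35 in tg/wt and rose 3.78-fold. Kcna7, a potassium channel, read -2.58 and -2.59 on the WT arrays, -0.85 and -0.67 on the tg/wt arrays and -2.89 and -2.79 on the tg/tg arrays. Xlr3c, an X-linked gene, stood at 0.30 and 0.38 in tg/wt, over WT at -1.47 and -1.40 and tg/tg at -1.91 and -1.94. For both, tg/wt stood above WT and tg/tg alike, with rises over WT of 3.54-fold and 3.41-fold. Acsf2, an acyl-CoA synthetase, gave -3.17 and -3.13, then -1.54 and -1.28, then -3.36 and -3.18 in the same order of genotypes. Galnt5, a mucin-type glycosyltransferase, gave -3.39 and -3.58, -1.84 and -2.01, and -4.26 and -4.63. Gc, the vitamin D binding protein, rose 3.04-fold over WT, a call lost without WT 1 or WT 2 (1.57 to 1.64), and Krtap31-1, a hair keratin-associated gene, 2.96-fold. For these 4 genes too both tg/wt arrays lay above the WT and tg/tg arrays. The slide of the tg/wt arrays differs from that of both other genotypes, so slide and genotype cannot be told apart in such a pattern. Hjv, hemojuvelin, and Cyp4a12a, a fatty acid hydroxylase, fell 3.18-fold and 2.92-fold.

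Among dim genes the differences are bounds, while the calls rest on the dim readings themselves. Of the called genes, 48 of those higher were not well above background on either WT array, and 29 of those lower were not so on either tg/wt array. Atcay, a neuronal protein, measured -5.98 and -6.33 in WT against -2.04 and -1.91 in tg/wt and was at least 12.8-fold higher. Bounds of at least 4.75-fold and 3.78-fold stood for Fbxw14 and Plg, and of at least 3.32-fold, 3.26-fold and 2.85-fold for Gm20738 on the Y chromosome, Pdyn and Gm16367. For Olfr741 the 4.30-fold rise is the plain difference. Its WT readings, -5.63 and -5.56, lay above the lowest signals that count as well above background there, -5.71 and -5.59. The Plg call was lost without any 1 of the 4 arrays (2.03 to 2.09), and that of Fbxw14 without tg/wt 2 (4.0). On the lower side, Acsbg2 was at least 4.50-fold lower, Vwa7 3.75-fold, Tacr1 3.41-fold, Gprin1 3.07-fold, Nudt6 3.03-fold, Pabpc5 2.99-fold and Pitx1 2.59-fold. Several of these rest on WT arrays that differ: Acsbg2 measured -4.34 and -2.54 in WT, and Pabpc5 -2.90 and -5.16. The calls of Gprin1 and Pabpc5 were lost without tg/wt 1 or tg/wt 2 (-3.18 to -2.81 and -4.01 to -3.61). With low values held at a floor, Acsbg2, Gprin1 and Pabpc5 lost their calls (-1.95, -1.39 and -1.36). Under normexp with capped local backgrounds Acsbg2 and Gprin1 did so too (-0.91 and -0.87). The 2 probes of Tacr1 disagreed in sign, at -2.06 and 0.50.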

How the data were processed

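Gene expression was measured in lung RNA on 6 Agilent single-colour arrays, 2 per genotype. The deposited scanner files hold intensity per spot, background-subtracted and detrended within the array by Agilent Feature Extraction (version 9.5.3.1 per the file headers, 9.1 per the submitters' processing notes). The authors' deposited series table holds intensity values that equal the background-subtracted signal of the scanner files on every array, within a relative 1e-04. From each processed signal log2 was taken and the array's 75th percentile subtracted, with control spots and outlier-marked spots left out. Spots of a probe were averaged. Accessions were matched to RefSeq, giving a symbol to 22951 of 41174 probes (16358 symbols). Of 26814 probes measured above background by the rule given in the report, 17878 had a symbol, 8 of which lacked a spot and were left out. The brightest probe stood for a gene: 4155 genes had several probes, and among 1039 of these that were called, all probes had the same sign in 859. Genotypes were fitted over all 6 arrays with limma 3.58.1 (lmFit and eBayes, 3 residual and 1.93 prior degrees of freedom) in R 4.3.3, adjusted by Benjamini-Hochberg over 12745 genes. The procedure was tested on simulated data. Replicate numbers shared by the genotypes were not treated as pairs.

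Genes were named by rule: Tbx21, the 20 largest rises and 20 largest falls among called genes measured on all 4 arrays, the 8 largest bounds in each direction, and from each list up to 6 members per direction and those against its majority. The largest rises, falls and bounds were taken only from genes whose genotypes did not overlap. Sex-linked, IL-17 axis and surfactant genes and lung markers were given whether or not they passed. Some genes that the rule names are not reported here, and Ssty2 was added after its values were seen. Members and lists were chosen with earlier results of these data known. Lists are described by counts and medians, with no set test. Figures were drawn with matplotlib 3.10.9 in Python 3.11.15.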

Additional observations from a re-analysis of the deposited data

How the results depend on the processing

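Counts of higher and lower genes stayed within 1.5 times of 1966 and 1700 under quantile and median scaling, a floor, the all-4-array filter, averaged probes, the 4 arrays alone, a variance trend, the series table and normexp with capped local backgrounds (1423 and 1340, chosen after seeing the data). They moved with the E1A spike-in scale (322 and 948, also chosen afterwards), with no filter on dim probes (1060 lower), with a minimum fold of 1.5 (97 and 89) and when 1 array was left out (829 to 1045 and 613 to 852). The fit with the replicate number as a block gave 1535 and 1301 calls. Same-numbered arrays deviated with correlations of 0.16, -0.03 and -0.04. With 2 arrays per genotype these values cannot settle whether the numbers pair the arrays. With normexp on the raw local backgrounds limma called 0 genes higher and 1 lower (2735 at an unadjusted p below 0.05). The highest local background was 21738 on the first WT array (median 58) and 980 on the second (median 59), and the WT arrays correlated at 0.980, or 0.999 with those spots capped. That fit put Tbx21 at 1.79, past no threshold (adjusted p = 0.0536; over its other settings 7.74e-20 to 0.00377), and turned these named genes: Dnase1l3 at -0.16, Ccl3 at -0.064, Fasl at -0.43, Gc at -0.88, Krtap31-1 at -0.66, Gzmk at -0.43, Fbxw14 at -0.54, Olfr741 at -0.86, Plg at -0.83, Gm20738 at -1.11, Pdyn at -0.90, Gm16367 at -1.01, Gimap7 at -1.10. It also turned Tnf at -0.72, Icos at -0.82, Lag3 at -0.70, Ccnb1 at -0.75, Aurkb at -0.91, Per3 at -0.18, Cry1 at -0.70, Tnnt3 at -0.18, Csf2 at -0.19, Ccr6 at -0.11, Xbp1 at 0.052, Cldn5 at 0.086, Il17re at 0.12, Ssty2 at -1.23. No adjusted p was below 0.05 among them. Spike-in scaling turned Lcn2 (-0.03) and Chil1 (-0.059). Of 168 other named genes, 140 kept their direction and side of the threshold under it, 160 under capped normexp, and 148 to 153 with 1 array left out.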
